A study of Caenorhabditis elegans with 2 samples.

Results

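The mitochondrial ribosomal protein genes of Caenorhabditis elegans were examined in a chromatin immunoprecipitation and sequencing (ChIP-seq) experiment on NHR-11, a nuclear hormone receptor, in whole L1 larvae, the first larval stage. They were taken as the protein-coding genes whose symbol starts with mrpl- (large subunit) or mrps- (small subunit) in the annotation of the WBcel235 assembly, which the ce11 build names, and they number 70 of 19973 protein-coding genes, 41 of the large and 29 of the small subunit. The strain, OP305, carries unc-119(ed3) on chromosome III and the transgene wgIs305, which supplies an eGFP fusion of NHR-11 and so measures a tagged protein from an inserted copy; animals of both sexes were pooled and their age is listed as unknown. Both biological replicates belong to 1 group with that genotype, so conditions could not be compared and no test was run. No untagged strain is among the samples, and in whole larvae the cells in which a site was bound cannot be told. For each gene the score is the highest peak signal value of any candidate summit from 1000 bp upstream to 200 bp downstream of a protein-coding transcript 5' end, a stretch called its promoter window below. Scores came from the pooled candidate list (28727 peaks, signal 13.6 to 681) and from the candidates of each replicate (30000 peaks each). The authors label these lists as peaks and background, so a candidate that was not called can be background. A gene is called where such a summit is in the 1141-peak list that the authors kept after an irreproducible discovery rate (IDR) threshold. The signal is the authors' own value whose scale the sources used here do not state, and the lists hold no read counts, so the depth is unknown.

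Mitochondrial ribosomes translate the few messages encoded by mitochondrial DNA, all of which in worms encode subunits of the respiratory chain and the ATP synthase. Their RNA comes from the mitochondrial genome, while all their proteins are encoded in the nucleus, made by cytosolic ribosomes and imported. In worms, reducing mitochondrial ribosomal proteins such as MRPS-5 is known to extend lifespan and to induce the mitochondrial stress response. Many worm genes of basic metabolism lie in operons, in which closely spaced genes on 1 strand are transcribed from a promoter before the first gene and the later messages are separated by trans-splicing.

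Called summits lay in the promoter windows of 6 of the 70 members (8.57%), against 956 of all 19973 protein-coding genes (4.79%). Any pooled candidate was present for 45 members (64.3%), against 41.1% of all genes. Within the genes that had a pooled candidate, 13.3% of the members were called, against 11.6% of all genes, and the median pooled signal was 20.7 for the members and 21.2 for all genes. A candidate was thus listed for a larger share of members than of all genes, at a median signal near that of all genes. Of the 45 members with a pooled candidate, 39 were not called, and such candidates can be background. The list of replicate 1 had a candidate for 44 members (62.9%, against 41.9% of all genes) and that of replicate 2 for 34 (48.6%, against 42.5%). Candidates in the pooled list and in both replicates were present for 25 members (35.7%, against 23.6%), and 15 members (21.4%) had none in any of the 3 lists, against 39.2% of all genes.

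**Figure D1:**
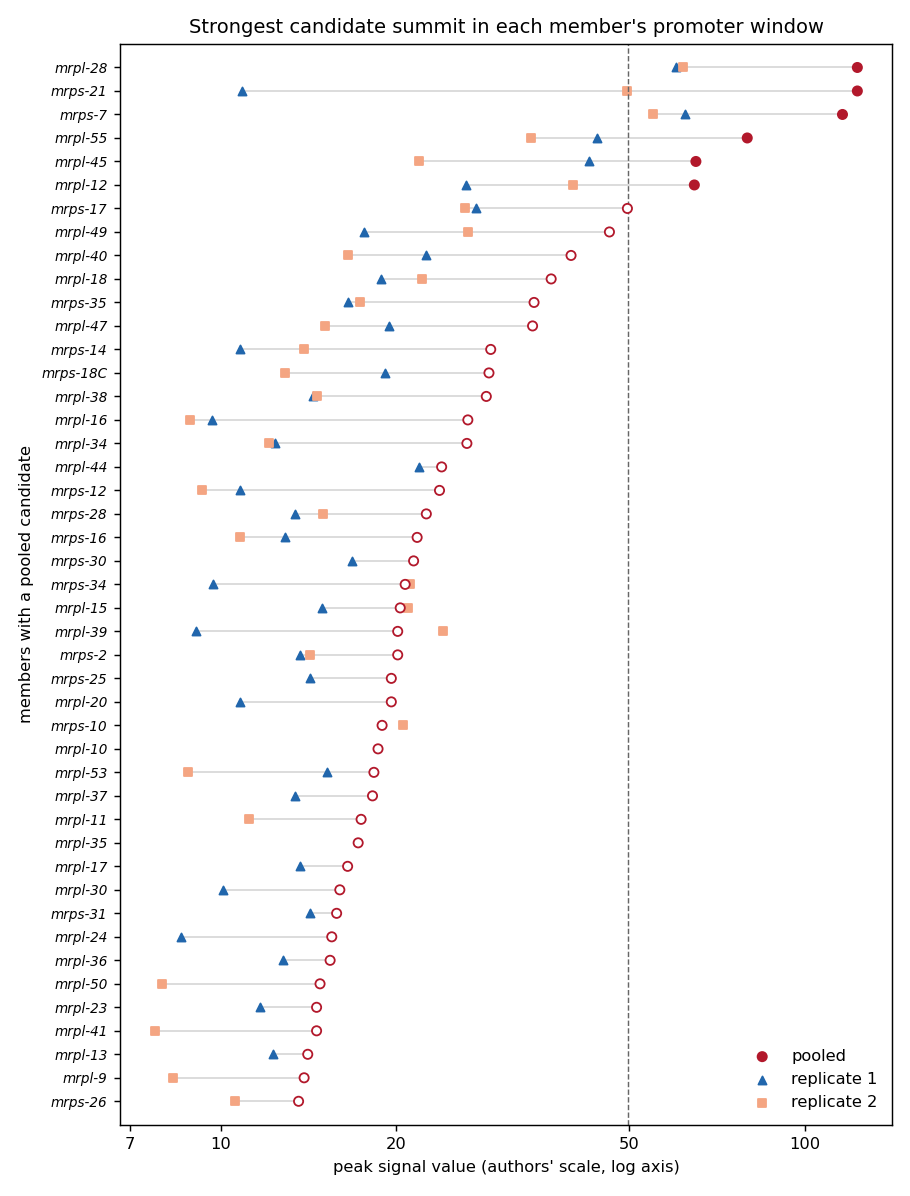
Signal value (log axis, authors' scale) of the strongest candidate summit in the promoter window of each of the 45 members with a pooled candidate, in the pooled list (circles, filled where called), replicate 1 (triangles) and replicate 2 (squares); grey lines join the values of 1 gene, and the dashed line is the lowest called signal, 49.9. The 6 called members stand at 64.7 to 123, mrps-17 lies just left of the line, and mrps-21 has a replicate 1 value far below its other values.

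The sequences of 101 bases centred on the pooled summit are shown for the 8 members with the highest pooled signal, the 6 called ones and the strongest that were not called, mrps-17 and mrpl-49, from the RefSeq sequence of WBcel235, 5' to 3' on the strand of the member, with capitals at any match on either strand to the words GACGCA or AGTGCA or AAGTCA or GCGCTCC. In ce11 the windows and their strands are mrpl-28 at chrII:156040-156140 (minus), mrps-21 at chrIV:4660461-4660561 (minus), mrps-7 at chrIV:14767847-14767947 (minus), mrpl-55 at chrIV:443819-443919 (plus), mrpl-45 at chrIII:1202286-1202386 (minus), mrpl-12 at chrIII:10707202-10707302 (plus), mrps-17 at chrIII:6431925-6432025 (minus) and mrpl-49 at chrV:12728381-12728481 (plus). The words that recur are AGTGCA in mrps-7, mrpl-55 and mrpl-12, and GCGCTCC in mrpl-55, mrpl-45 and mrpl-49; mrpl-28, mrps-21 and mrps-17 hold none of the words.
mrpl-28: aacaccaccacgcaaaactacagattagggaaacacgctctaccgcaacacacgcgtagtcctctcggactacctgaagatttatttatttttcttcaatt
mrps-21: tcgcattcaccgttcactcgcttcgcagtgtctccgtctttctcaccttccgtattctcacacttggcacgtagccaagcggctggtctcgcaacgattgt
mrps-7: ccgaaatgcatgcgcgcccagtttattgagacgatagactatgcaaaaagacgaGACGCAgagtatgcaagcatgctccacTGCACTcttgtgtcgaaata
mrpl-55: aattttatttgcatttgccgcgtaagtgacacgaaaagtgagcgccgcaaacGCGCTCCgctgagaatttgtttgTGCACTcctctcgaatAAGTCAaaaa
mrpl-45: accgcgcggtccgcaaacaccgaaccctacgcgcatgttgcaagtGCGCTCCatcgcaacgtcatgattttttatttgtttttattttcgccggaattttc
mrpl-12: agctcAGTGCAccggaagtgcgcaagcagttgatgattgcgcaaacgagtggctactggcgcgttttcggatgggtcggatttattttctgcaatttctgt
mrps-17: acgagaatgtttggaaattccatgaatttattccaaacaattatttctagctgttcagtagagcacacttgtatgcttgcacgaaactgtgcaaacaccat
mrpl-49: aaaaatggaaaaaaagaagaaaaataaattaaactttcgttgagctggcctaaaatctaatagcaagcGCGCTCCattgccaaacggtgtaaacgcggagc

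Among large subunit genes, 4 of 41 were called (9.76%). The strongest was mrpl-28 (WBGene00020796, II 154881 to 156009, minus strand), which encodes a protein with a bacterial counterpart, with a signal of 123 in the pool, 60.1 in replicate 1 and 61.9 in replicate 2. Its summit lay between protein-coding genes, 81 bp upstream of its 5' end, and no other protein-coding window held it. By pooled signal mrpl-28 ranked 225 among all candidates of the genome, and both replicates gave it nearly the same value. The gene mrpl-55 (WBGene00022045, IV 443985 to 444786, plus strand), which encodes a protein without a bacterial counterpart, had 79.7 in the pool, 44 in replicate 1 and 34 in replicate 2. Its summit, 116 bp upstream, was likewise in no other window. For mrpl-45 (WBGene00022493, III 1196389 to 1202008, minus strand), whose mammalian counterpart helps to hold the ribosome at the inner membrane, the values were 65.1 in the pool, 42.8 in replicate 1 and 21.9 in replicate 2. Replicate 2 was thus the lower of the pair, and outside its own 1141 strongest candidates, which start at 26.2. The gene mrpl-12 (WBGene00012361, III 10707761 to 10708521, plus strand), for the stalk protein that recruits translation factors, had 64.7 in the pool, 26.3 in replicate 1 and 40.1 in replicate 2. Here replicate 1 was the lower one, below the 28.4 at which its 1141 strongest candidates start.

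Among small subunit genes, 2 of 29 were called (6.90%). The gene mrps-7 (WBGene00013324, IV 14766773 to 14767730, minus strand), whose bacterial counterpart organises the head of the small subunit, had 116 in the pool, 62.4 in replicate 1 and 54.9 in replicate 2, with the summit 167 bp upstream. Both replicates were high. The gene mrps-21 (WBGene00017924, IV 4659049 to 4659517, minus strand), also with a bacterial counterpart, had 123 in the pool, 10.9 in replicate 1 and 49.7 in replicate 2. The low value of replicate 1 is a matter of the window: the replicate 1 candidate that overlaps the pooled peak had a signal of 73.7, and its summit, 30 bp from the pooled one, fell outside the 1000 bp. The pooled summit itself lay 994 bp upstream of mrps-21, 310 bp upstream of F29B9.11 on the same strand and 480 bp upstream of jmjd-1.2 on the other strand. Of these, jmjd-1.2 encodes a histone demethylase known in worms for its part in the mitochondrial stress response. A pooled candidate was present for 29 of 41 large subunit genes (70.7%) and 16 of 29 small subunit genes (55.2%). No candidate in any list was found for 14.6% of the large and 31.0% of the small subunit genes, while a candidate in all 3 lists was found for 34.1% and 37.9% in the same order. The median pooled signal of those with a pooled candidate was 19.6 for the large and 22.1 for the small subunit; none of these differences was tested.

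The strongest member that was not called was mrps-17, with a pooled signal of 49.7, where the called list starts at 49.9. Its values were 27.4 in replicate 1 and 26.2 in replicate 2, so the replicates were close. The gene mrpl-49, which encodes a protein without a bacterial counterpart, had 46.3 in the pool, 17.6 in replicate 1 and 26.5 in replicate 2. For mrpl-40 the values were 39.8, 22.5 and 16.5 in the pool, replicate 1 and replicate 2, and for mrpl-18 they were 36.8, 18.8 and 22.1 in the same order. The next members had pooled signals of 34.4 (mrps-35), 34.2 (mrpl-47), 29.0 (mrps-14), 28.8 (mrps-18C), 28.5 (mrpl-38), 26.5 (mrpl-16), 26.4 (mrpl-34) and 23.9 (mrpl-44, whose protein belongs to the RNase III family). All of these had a window candidate in both replicates except mrpl-44, which had 21.9 in replicate 1 and none in replicate 2. The remaining 27 members with a pooled candidate lay at 23.7 or below, and 12 of the 45 (26.7%) lay above 30.9, the upper quartile of all genes with a pooled candidate.

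Across the 25 members with a window candidate in both replicates, the rank correlation of the signals (Spearman) was 0.535 and that of their log10 values (Pearson) 0.633. These are descriptions across genes, which share their 2 libraries and are not replicates; over all 5138 genes with both values the rank correlation was 0.581. Of the 1141 strongest candidates of replicate 1, 4 members had one in their window (mrpl-28, mrps-7, mrpl-55 and mrpl-45), where the share of all genes was 4.67%. For replicate 2 there were 7 members (mrpl-28, mrps-7, mrpl-55, mrps-21, mrpl-12, mrps-17 and mrpl-49), where the share of all genes was 4.57%. Only mrpl-28, mrps-7 and mrpl-55 were in both sets. For mrps-21 the replicate 1 window value of 10.9 was used in these correlations and sets. Its overlapping candidate outside the window had 73.7, above the 28.4 at which the replicate 1 set starts. A window candidate in replicate 1 alone was found for 19 members, with signals of 8.57 to 21.9: mrpl-44, mrps-30, mrps-25, mrpl-20, mrpl-37, mrpl-17, mrpl-30, mrps-31, mrpl-24, mrpl-36, mrpl-23, mrpl-13, mrpl-19, mrps-9, mrps-23, mrpl-1, mrps-24, mrpl-4 and mrps-11. A window candidate in replicate 2 alone was found for 9, with signals of 7.73 to 20.5: mrps-10, mrpl-11, mrpl-50, mrpl-41, mrpl-9, mrps-26, mrpl-54, mrpl-21 and mrpl-48. These are 27.1% and 12.9% of the members for replicate 1 alone and replicate 2 alone. Of all 19973 genes, 8369 had a window candidate in replicate 1, 8482 in replicate 2 and 5138 in both. Over all genes, replicate 1 alone was thus slightly less frequent than replicate 2 alone. The difference was not tested. The pair mrpl-1 and mrps-24, on opposite strands with 5' ends 344 bp apart, share 1 replicate 1 candidate with a signal of 13. The 5' end of emc-6 lies between theirs, 309 bp from that of mrps-24. A pooled candidate with no window candidate in either replicate was found for mrpl-10 (18.6) and mrpl-35 (17.2). For mrpl-10 a replicate 2 candidate (10.8) overlapped the pooled peak, with its summit outside the window. The same held for mrpl-23, listed above under replicate 1 alone, with a replicate 2 candidate of 8.72. No replicate candidate overlapped the pooled peak of mrpl-35.

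**Figure D2:**
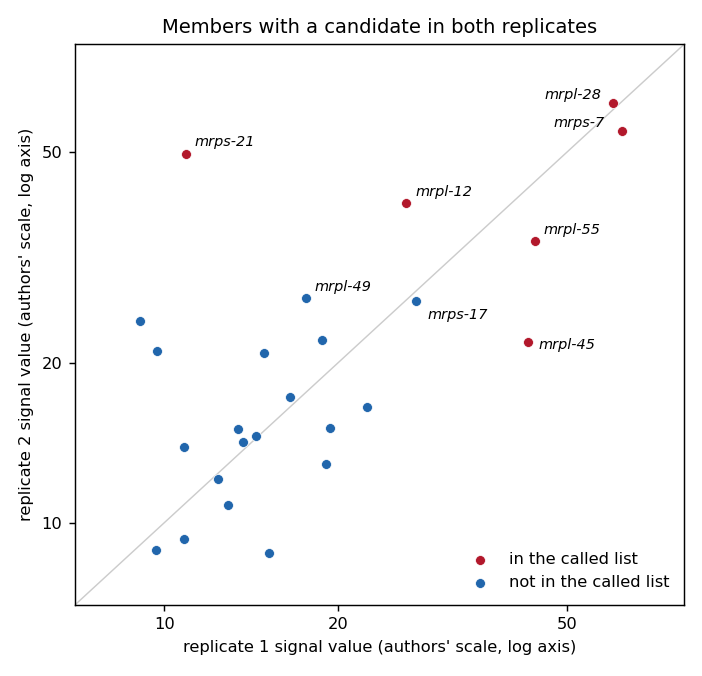
Signal value of the strongest window candidate in replicate 1 (x axis) and replicate 2 (y axis), both log axes on the authors' scale, for the 25 members with a candidate in both; each point is 1 gene, red where called, and the line marks equal values. The 2 points at the upper right are mrpl-28 and mrps-7, and mrps-21 stands apart at 10.9 and 49.7 with its stronger replicate 1 summit just outside the window.

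No pooled candidate was found for 25 members. Of these, 7 had a weak replicate 1 candidate (8.75 to 13.6) and 3 a weak replicate 2 candidate (8.17 to 8.56). The other 15 had none in any list, among them mrps-5, mrps-6, mrps-15, mrps-22, mrpl-2, mrpl-22, mrpl-46 and mrpl-51. The window of mrps-5, the member best known for its link to lifespan, thus held no candidate at all. An absent candidate says only that no peak was listed, since weaker enrichment would not appear in these lists.

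Member summits sat close to the 5' end. Of the 45 strongest pooled summits, 30 (66.7%) were within 300 bp upstream of the member's 5' end, against 38.2% over all 8211 genes with a pooled candidate, and the median distance was 177 bp for the members and 292 bp for all genes. A further 11 were more than 500 bp upstream (24.4%, against 30.8% over all genes with a pooled candidate). Another 2 lay downstream, at mrpl-50 and mrps-31. By annotation of protein-coding genes alone, 29 summits were between genes, 5 in introns, 5 in 3' UTRs, 4 in coding exons and 2 in 5' UTRs. A summit in a non-coding gene can thus count as between genes. The locations over all genes are not given here, so these counts describe the members only. The 5 summits in 3' UTRs, at mrps-14, mrps-30, mrpl-53, mrpl-30 and mrpl-13, belong to members with a closely spaced gene upstream. All 6 called summits were between protein-coding genes.

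**Figure D3:**
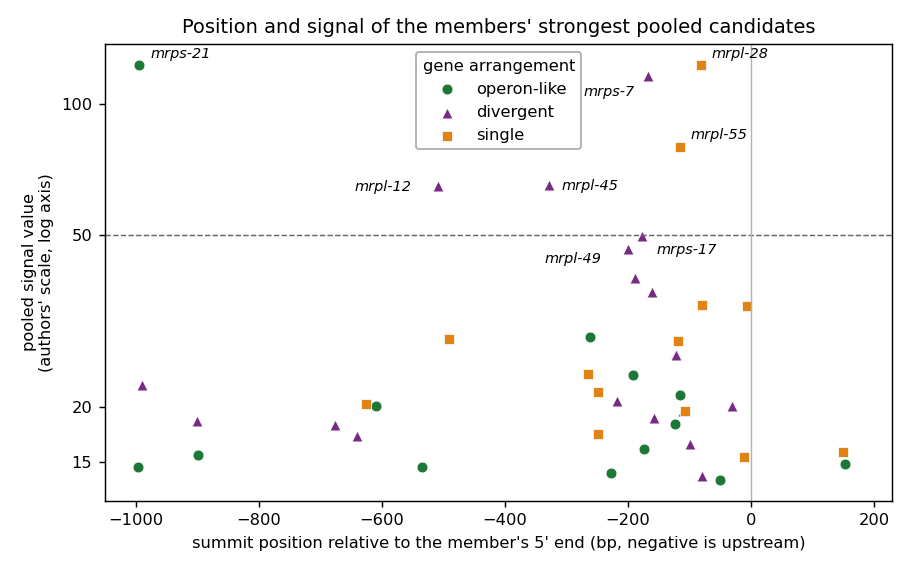
Position of the strongest pooled summit relative to the member's 5' end (x axis, bp) and its pooled signal (y axis, log, authors' scale) for 45 members, by gene arrangement; the dashed line is the lowest called signal, 49.9. Most points lie within 300 bp upstream, and the called summit of mrps-21 lies at the edge of the window, 994 bp upstream.

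Many member summits were shared with a neighbour. Another protein-coding window held the same summit for 20 of 45 members (44.4%), against 27.2% over all genes with a pooled candidate, and for 35 the nearest protein-coding 5' end was the member's own. The called summit of mrps-7 also lay 304 bp upstream of Y57G11C.3, that of mrpl-45 210 bp upstream of Y119D3B.12, and that of mrpl-12 224 bp upstream of Y39A1A.22. For mrpl-45 and mrpl-12 the neighbour was the nearer gene. The mrpl-49 summit was also 319 bp upstream of rpl-28, a gene for a protein of the cytosolic ribosome, which shares the region between them. Other shared summits included those with txdc-9 (mrps-17), sws-1 (mrps-35), the calpain gene clp-2 (mrpl-16) and cisd-3.1 (mrps-34). Further examples were with npp-25, a nuclear pore gene (mrps-10), and kin-3, a casein kinase 2 gene (mrpl-9). The mrpl-40 summit lay 10 bp downstream of the F54C4.4 5' end and 188 bp upstream of the member's. That of mrpl-37 lay 181 bp upstream of lin-38 and 676 bp upstream of the member. ChIP signal at such a summit cannot be assigned to either gene.

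Gene arrangement differed from that of genes at large. A same-strand protein-coding gene ended within 500 bp upstream of 27 members (38.6%, against 18.1% of all genes), an arrangement called operon-like below from spacing alone. Of the others, 26 (37.1%, against 17.5%) had a divergent neighbour whose outermost 5' end was within 1000 bp, and 17 (24.3%, against 64.5%) had neither. Only the outermost 5' end of each gene was used here. The member mrps-35 thus counts as single, although its summit lay 77 bp upstream of a 5' end of sws-1 on the opposite strand. No member lies on the X chromosome, which holds 13.7% of all protein-coding genes. Called were 1 of 27 operon-like members (3.70%, against 3.57% of all operon-like genes), 3 of 26 divergent members (11.5%, against 11.7%) and 2 of 17 single members (11.8%, against 3.25%). Within the operon-like and the divergent class the members' called share was thus close to that of all genes of the class. The single class rests on mrpl-28 and mrpl-55. A pooled candidate was present for a larger share of members than of other genes in each class. The shares were 48.1% against 38.5% (operon-like), 73.1% against 49.7% (divergent) and 76.5% against 39.4% (single). Of the genes with a pooled candidate, 7.69% of operon-like members were called, against 9.27% of other operon-like genes. The shares were 15.8% against 23.6% for divergent and 15.4% against 8.22% for single genes.

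Near operon-like members the higher signal was mostly at the first gene of the run of closely spaced genes. The 27 members lie in 26 runs, with a median gap of 106 bp to the gene before them, and 18 follow directly after the first gene. The member's own window had the higher pooled signal for 3 of the 27 members (mrpl-13, mrpl-24 and mrpl-50) and the first gene's window for 18, while 1 peak served both for mrps-21 and neither window had a candidate for 5. In replicate 1 the member was higher for 3 and the first gene for 20, and in replicate 2 the member for 1 and the first gene for 18. Over all 3610 operon-like genes the gene itself was higher for 22.1% and the first gene for 41.9%. Of the 26 first genes, 11 were called (42.3%), against 8.99% of the first genes of all 2646 runs, and their median pooled signal was 67.2, against 24.0. These shares were computed after the scores were seen and were not tested.

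The largest such values were at genes of other pathways. The member mrpl-54 had only a replicate 2 candidate of 8.36, while clsp-1 before it, a claspin gene of the DNA replication checkpoint, had 248 in the pool, 122 in replicate 1 and 126 in replicate 2. No candidate was listed for mrpl-32, while rpn-3 before it, a proteasome subunit gene, had 203 in the pool, 102 in replicate 1 and 92.8 in replicate 2. Both first genes were high in both replicates. The member mrps-14 had 29.0 in the pool, while nrde-2 before it, a nuclear RNA interference gene, had 136. Genes of mitochondrial proteins also lead such runs. The member mrpl-41 had 14.6 in the pool and the mitochondrial carrier gene misc-1 before it 97.6. The member mrps-26 had 13.6 and atp-2, the ATP synthase beta subunit gene that leads its run, 59.7. The members mrps-2 (20.1) and mrpl-4 (no pooled candidate) lie in 1 run led by natc-1 (71.2), a gene for an N-terminal acetyltransferase subunit. Below the called range were the first genes of 2 members' runs with roles in cytosolic translation. The member mrpl-23 had 14.6 and fars-1 before it, a phenylalanyl-tRNA synthetase gene, 45.4. For mrps-30 the pooled signal was 21.4, and for eif-3.E, an initiation factor gene that leads its run, 41.7. Neither mrps-30 nor eif-3.E had a window candidate in replicate 2. The run of mrps-5 had no candidate at its first gene, sel-1, either.

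**Figure D4:**
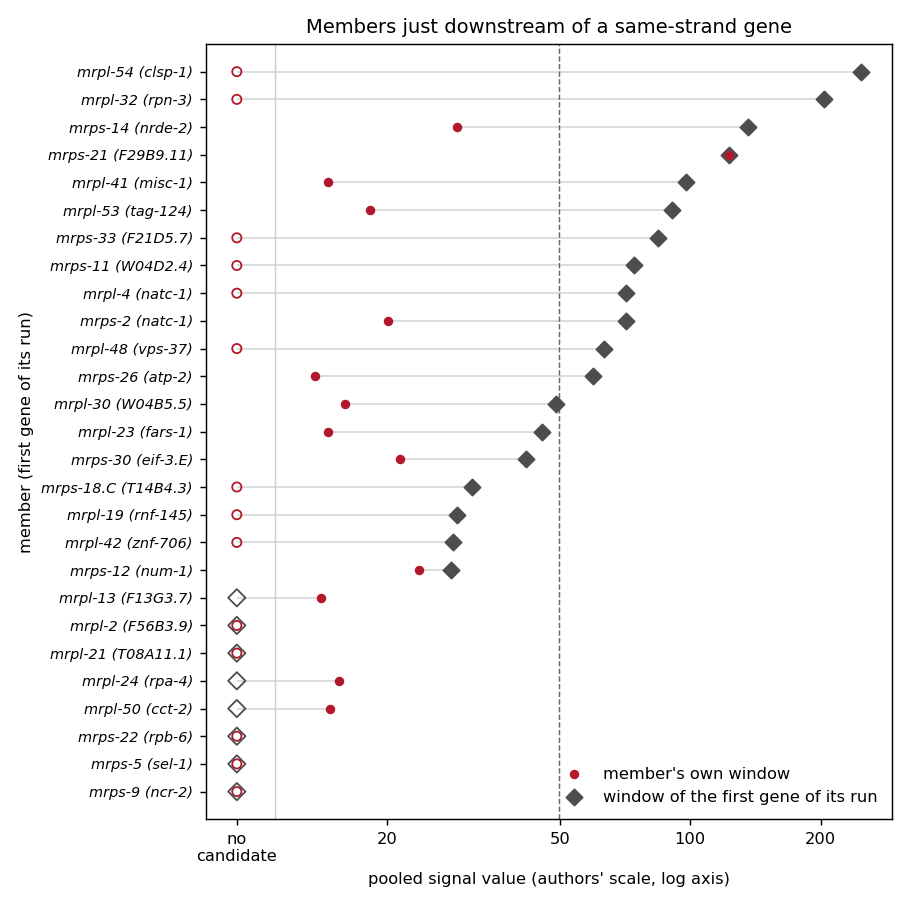
Pooled signal (x axis, log, authors' scale) in the member's own promoter window (red circles) and in that of the first gene of its run (grey diamonds) for the 27 operon-like members, with the first gene in brackets; open symbols at the left stand for no candidate and the dashed line is 49.9. The diamond is to the right of the circle for 18 members and on it for mrps-21.

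Beside 6 other lists, the members' share of called genes was below that of 5. The medians that follow cover only genes with a pooled candidate, which were 64.3% of the members, 76.5% of the translation factor, 52.6% of the import, 91.7% of the chaperone, 82.5% of the respiratory chain, 3 of 5 of the mitochondrial DNA and 92.6% of the cytosolic ribosomal protein genes. The members had 6 of 70 called (8.57%) with a median pooled signal of 20.7. Mitochondrial translation factors and tRNA synthetases, a list that also takes in mtcu-1 and mtcu-2, had 2 of 17 called (11.8%) with a median of 21.3. The called ones were mtcu-2 (87.9) and ears-2 (75.6), of which only ears-2 is of the named kinds. Mitochondrial protein import genes had 5 of 19 (26.3%) with a median of 52.5, led by ddp-1 (167) and tomm-20 (157), which encode a chaperone of the intermembrane space and an outer membrane receptor, followed by timm-17B.1 (74.9) and tin-9.1 (67.9). Mitochondrial chaperones, proteases and stress genes had 2 of 12 (16.7%), the chaperonin gene hsp-60 (195) and the prohibitin gene phb-2 (70.8), and a median of 31.5. Respiratory chain genes had 13 of 40 called (32.5%) and a median of 37.0, with asb-2 (92.3) among the strongest after cox-5A (219) and atp-1 (113), and before mev-1 (81.5). Genes for maintenance and transcription of mitochondrial DNA had 0 of 5 called and a median of 14.9. Cytosolic ribosomal protein genes had 43 of 81 called (53.1%) and a median of 60.9, led by rpl-3 (536), rpl-20 (373), rpl-35 (361) and rpl-15 (254). Equal signals in the pool and in both replicates were found for rps-10 and rpl-24.1, rps-14 and rpl-36, and rpl-39 and rps-30. The same held across lists for nuo-1 and rpl-36.A. A peak shared by 2 listed genes can thus count for both, while the members' 45 pooled summits were all distinct. The differences between lists were not tested.

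**Figure D5:**
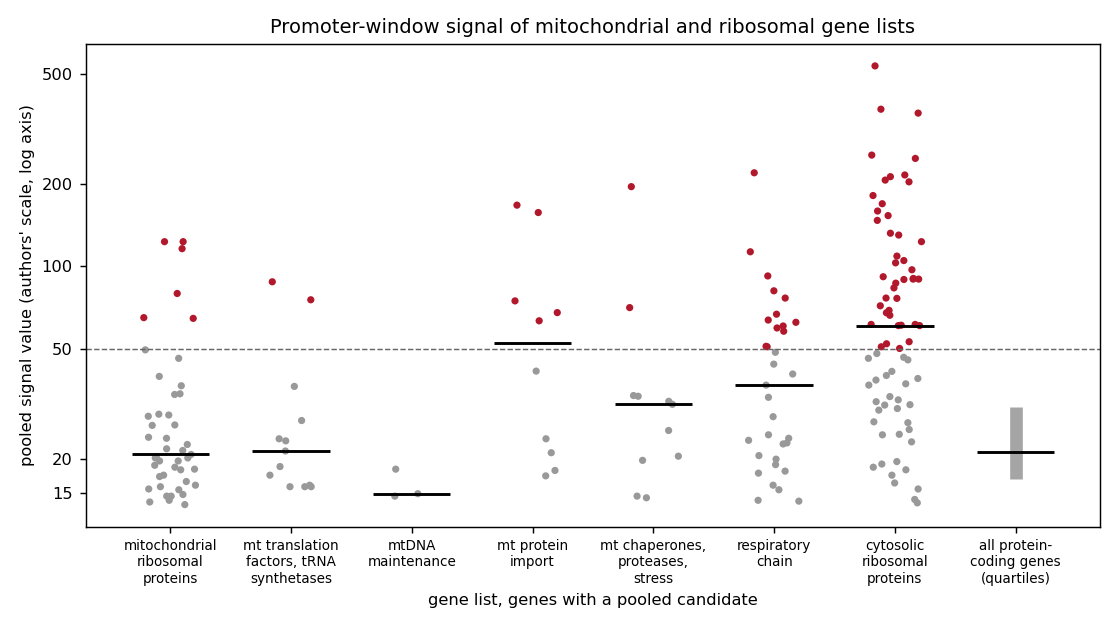
Pooled signal (y axis, log, authors' scale) of the genes with a pooled candidate in the members' list, in 6 other lists and, as the bar from lower to upper quartile, over all protein-coding genes; each point is 1 gene, red where called, black lines are medians and the dashed line is 49.9. The members' median of 20.7 lies at that of all genes, 21.2, while cytosolic ribosomal protein genes have a median of 60.9.

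The sequence under member summits was described with 7 short motifs searched on both strands of the 101-base windows. The GAGA repeat GAGAGA was in 2 of 45 member windows (4.44%) and in none of the 6 called ones, against 10.9% of the 7111 distinct strongest summits of all genes and 26.5% of the 695 called ones. GACGCA was in 3 member windows (6.67%, against 6.17%), of which 1 was called, that of mrps-7. AGTGCA, a word bound by the worm nuclear receptor DAF-12, was in 4 member windows (8.89%, against 3.71%) and in 3 of the 6 called ones, those of mrps-7, mrpl-55 and mrpl-12, against 6.19% of all called summits, whereas in promoters its share of members was below that of all genes, as given with the promoter counts. AGGTCA was in 2 (4.44%, against 2.35%), AAGTCA in 1 (2.22%, against 3.81%), the E-box CACGTG in 1 (2.22%, against 2.40%) and the GATA sequence TGATAA in 6 (13.3%, against 9.21%). A match is a run of letters and not a binding site. The called member windows were GC-rich, with a median GC content of 48.0%, as were called summits of all genes with 46.5%; over all windows it was 38.6% for the members and 35.6% for all genes.

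The word GCGCTCC was noticed in the windows printed above and then counted, so its counts are a description of those windows and not a test. It was in 5 of 45 member windows (11.1%), at mrpl-55, mrpl-45, mrpl-49, mrpl-47 and mrpl-37, against 1.70% of the strongest summits of all genes and 5.47% of the called ones. In promoters of 250 bases before to 50 after the 5' end it was in 7 of 70 members, against 1.95% of all 19973 promoters. These 7 were mrpl-55, mrpl-49, mrpl-47, mrpl-1, mrps-24, mrpl-2 and mrps-9, and mrpl-2 has no candidate in any list. The promoter count is not separate from the summit count, since the matches at mrpl-55, mrpl-49 and mrpl-47 lie in both stretches. The promoters of mrpl-1 and mrps-24, 344 bp apart, overlap, so a single match may count for both. Of the 7 other motifs, only CACGTG was in a larger share of member promoters than of all promoters (7.14%, against 5.83%). The shares were 8.57% for AGTGCA (against 9.62%), 5.71% for AGGTCA (against 8.23%), 27.1% for TGATAA (against 30.2%), 5.71% for GACGCA (against 8.78%) and 21.4% for GAGAGA (against 21.8%). AAGTCA was in 7 of 70 member promoters, against 13.3% of all promoters. The words AGTGCA and AGGTCA and also TGATAA and GACGCA were in smaller shares of member promoters than of all promoters. Their shares of member summit windows were larger than those of all summit windows, but rest on 4, 2, 6 and 3 member windows in that order. For GACGCA the summit shares were close, with 6.67% against 6.17%. With so few windows, no pattern of the members is drawn from these shares.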

How the data were processed

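The members, the comparison lists and the motifs were chosen with earlier results of these data known. The authors deposited ChIP-seq peak lists in narrowPeak layout on ce10 and ce11; only the 4 ce11 lists were used. The signal value of each peak, column 7, is the authors' own. Per the deposited notes, candidate lists per replicate and for the pooled reads served as input to IDR and a control file entered the calls. Neither the labels nor the notes say which programs aligned the reads and called the peaks, or at what IDR threshold. The called list was the 1141 pooled candidates with the highest signal.

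Genes and transcripts came from Ensembl release 115 (WBcel235). No peak passed a chromosome end of the RefSeq sequence of that assembly, from which sequences were read. Ensembl and RefSeq share all 70 member symbols. RefSeq also names mrpl-58, which had a pooled signal of 22.9. Of 22 listed mitochondrial translation genes, 17 matched by symbol. All called members, the next 12 by pooled signal, those with a candidate in 1 replicate, mrps-5 and up to 4 called genes per list are named. Called list genes with equal signals are named as well. The first genes of runs were chosen after their values were seen. The window scoring was tested on simulated peaks. Python 3.11.15, numpy 2.4.6, pandas 2.3.3, scipy 1.17.1 and matplotlib 3.10.9 were used. Alternatives changed the window, the 5' ends, the overlap rule, the lists and the replicates.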

Additional observations from a re-analysis of the deposited data

How the results depend on the processing

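The number of called members stayed within 1.5 times of 6 under 9 of 11 alternatives and the number with a pooled candidate within 1.5 times of 45 under all 11. Leaving out 1 replicate gave 34 to 44 members with a candidate and a median signal of 13.5 to 14.8, on each replicate's own scale. With no IDR list for 1 replicate, its 1141 strongest candidates stood in for the called list, a different definition, and held 4 to 7 members. Those of replicate 1 lacked mrps-21 and mrpl-12; those of replicate 2 lacked mrpl-45 and held mrps-17 and mrpl-49. With summits given only to the nearest 5' end, 3 members were called (mrpl-28, mrps-7 and mrpl-55), against 3.44% of all genes. With operon-like genes scored at the first gene of their run, an alternative added after the data were seen, 17 members were called, against 5.92% of all genes, and the median signal was 34.2; the first gene's peak then stands for the member by construction. A window of 500 bp upstream and 0 bp downstream lost mrps-21 and mrpl-12, leaving 4 of 70 called, against 3.78% of all genes. One of 2000 bp upstream and 500 bp downstream added mrpl-48, giving 7 of 70, against 6.25% of all genes. No paired analysis was possible because there is 1 group. The lists hold no counts, so depth sets no limit that can be given here.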
